A study of Mus musculus with 10 samples.

Results

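Open chromatin was examined around Esrrb, from 50 kb before the gene to 50 kb after it, in 10 mouse ATAC-seq libraries. The window runs from 86311117 to 86571628 on chromosome 12 (mm10, which is GRCm38), and Esrrb itself from 86361117 to 86521628 on the forward strand. In ATAC-seq a transposase cuts accessible DNA, and peaks are stretches where many fragments pile up. The window held 102 peaks over the 10 libraries, which merged into 37 regions where peaks overlapped, of 208851 regions in the genome. Of these regions, 3 lay upstream of the gene, 28 touched or lay inside it and 6 lay downstream. No other protein-coding gene entered the window: Gpatch2l ended 66.5 kb before Esrrb and Vash1 began 157.1 kb after it. The long noncoding RNA Gm40483 reached across the first start of Esrrb.

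The libraries came from 5 stages with 2 libraries each. Fibroblasts from mouse embryos (MEF, strain C57BL/6 x 129) had the genotype OKSM Col1a1/M2rtTA ROSA26: the cassette of the factors Oct4, Klf4, Sox2 and Myc sat at Col1a1, and its doxycycline-dependent activator M2rtTA at Rosa26. They were kept in MEF medium without doxycycline. The same kind of cells was collected after 3, 6 and 9 days (DAY3, DAY6, DAY9), still with the cassette. Their embryonic stem cell medium held 1 ug/ml doxycycline, 50 ug/ml ascorbic acid and 1000 U/ml LIF. The DAY6 and DAY9 cells were labelled as sorted for SSEA+ (SSEA1 in the design text, a surface marker of early pluripotency), and all others as unsorted. The reference, ESC, was the V6.5 line of embryonic stem cells, labelled with the same strain background, without the cassette, in medium with 1000 U/ml LIF on irradiated feeder cells, which are another cell type in that culture. Sorting and later time cannot be told apart, nor can the stem cell state and the missing cassette. The design text calls the replicates biological but names no separate animals or cultures, so p-values below measure the spread between these libraries, which may be technical.

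Esrrb encodes the estrogen-related receptor beta, an orphan nuclear receptor that binds DNA at extended AGGTCA sites without a known natural hormone. In mouse embryonic stem cells it belongs to the naive pluripotency network: Nanog activates it, Tcf7l1 represses it until Gsk3 is inhibited or Wnt signals arrive, and its protein binds many of the enhancers that Oct4, Sox2 and Klf4 bind. Fibroblasts do not express it, and it is known as one of the genes switched on late in reprogramming. Enhancers are distal control sequences, and an active one is typically accessible to the transposase.

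RefSeq annotates a pair of starts for Esrrb, one at 86361117 and an internal one at 86421644, 60.5 kb further into the gene. The windows from 250 bases before to 50 bases after each start are shown because the peak lists treated them differently, as described next. They are read 5′ to 3′ on the forward strand (RefSeq, GRCm38.p6), at chr12:86360867-86361166 for the first and chr12:86421394-86421693 for the internal start. Capitals mark exact matches, on either strand, to the motifs CACCC (KLF), AAGGTCA (ESRRB), ATGCAAAT (POU), CATTGT (SOX) and TGANTCA (AP-1).
First start: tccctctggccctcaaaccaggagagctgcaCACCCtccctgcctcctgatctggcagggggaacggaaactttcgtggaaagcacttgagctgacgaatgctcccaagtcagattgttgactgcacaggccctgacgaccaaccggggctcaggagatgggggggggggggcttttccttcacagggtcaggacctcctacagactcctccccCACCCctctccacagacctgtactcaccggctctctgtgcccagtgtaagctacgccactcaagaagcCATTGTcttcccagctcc
Internal start: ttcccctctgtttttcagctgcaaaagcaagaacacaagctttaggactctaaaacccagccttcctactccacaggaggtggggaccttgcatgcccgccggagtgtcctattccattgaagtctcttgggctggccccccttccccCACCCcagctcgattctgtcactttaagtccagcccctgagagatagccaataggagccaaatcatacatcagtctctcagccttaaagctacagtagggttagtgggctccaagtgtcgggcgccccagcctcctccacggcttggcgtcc
The first window held 2 CACCC matches and 1 CATTGT match, and the internal one held 1 CACCC match. CACCC occurred in 57.5% and CATTGT in 12.6% of all 32851 promoter windows in the table, so these matches are common sequence. The other motifs had no match here and were found in 4.72% (AAGGTCA), 1.74% (ATGCAAAT) and 7.81% (TGANTCA) of all windows. GC content was 60.0% and 55.3%, beside a median of 52.7%.

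The first start was listed as open in 1 library, ESC replicate 1, whose peak covered the whole 300-base window. Its height was 4.59, where height is the summit pileup divided by the background pileup of the same list, both recovered from the authors' fold and p-value. The internal start (chr12:86421299-86422457) had a peak in 8 of 10 libraries. The height was 3.12 in MEF replicate 2 and 3.39 in DAY3 replicate 1, with no listed peak in the other MEF and the other DAY3 library. It was 5.79 and 5.59 in the DAY6 libraries, 5.05 and 3.80 in DAY9, and 5.74 and 5.68 in ESC. The internal start was thus listed in both libraries from DAY6 on, with ESC heights inside the range of DAY6. A missing peak is not a height of 0: the smallest height listed at background level was between 2.76 and 4.73 in the 10 lists, depending on depth, and the 2 peaks in MEF and DAY3 were close to that limit.

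Peaks in the window were fewest at DAY3 and most frequent in ESC. Counted in the order of replicate 1 and 2, MEF had 5 and 6 peaks, DAY3 1 and 2, DAY6 10 and 8, DAY9 13 and 10, and ESC 27 and 20. The ESC libraries lay above all others and the DAY3 libraries below all others, while DAY6 and DAY9 overlapped. With lists of equal length the DAY3 libraries were no longer below all others in peak number. MEF had 3 and 2 peaks and DAY3 1 and 2, while ESC stayed above all others with 15 and 11. The length under peaks at that setting was still lowest in DAY3, at 264 and 634 bp beside 1618 and 814 bp in MEF. With scores at or above the pooled median, no peak was left in either DAY3 library, MEF replicate 2 or DAY6 replicate 1. The length under peaks was 2249 and 2185 bp for MEF, 264 and 634 bp for DAY3, 4668 and 3547 bp for DAY6, 6157 and 5495 bp for DAY9, and 13749 and 11030 bp for ESC. In covered length no 2 stages overlapped. In bulk samples a larger share of cells with an open region and more opening per cell cannot be told apart. The DAY3 lists were also the shortest of the series, at 45766 and 45497 peaks, beside 58969 to 88980 in the other 8, and the part of list length was not tested beyond the rates and equal-length lists below.

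**Figure D1:**
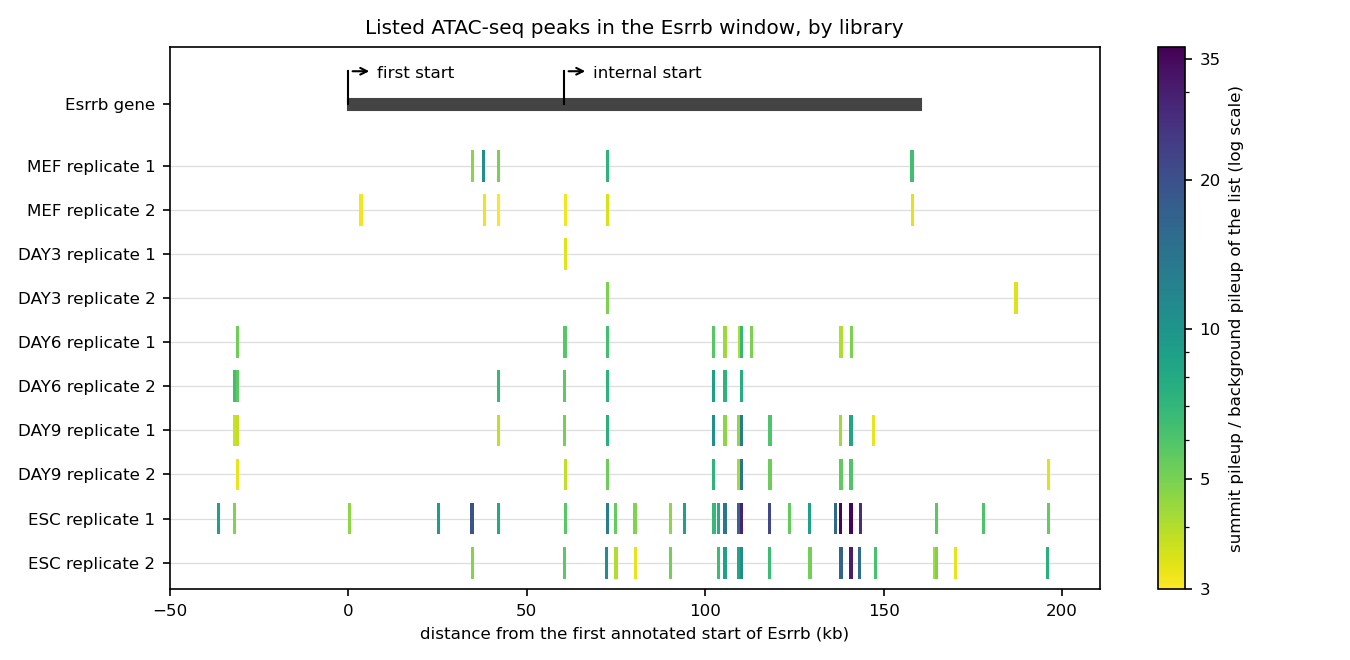
Listed peaks (bars) in the window by library, against the distance in kb from the first annotated start, with the gene and its starts on top. Colour gives the height (summit pileup over the background pileup of the list, log scale), and bars narrower than 0.9 kb are drawn 0.9 kb wide. The ESC libraries hold 27 and 20 peaks and the DAY3 libraries 1 and 2.

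Across the genome the members of the DAY3 pair, and of the DAY9 pair, differed by little more than counting noise. Each of these pairs entered the tests as the mean of its libraries, as 1 sample, giving 8 samples in total. The noise ratio, 1 for differences by counting alone, was 1.33 for DAY3 and 1.42 for DAY9 and between 3.61 and 8.11 for the other 3 pairs. MEF averaged 5.5 ± 0.707 peaks (SD, n = 2), DAY3 1.5, DAY6 9.0 ± 1.41 (SD, n = 2), DAY9 11.5 and ESC 23.5 ± 4.95 (SD, n = 2). Of the variation in peak number (sum of squares), 94.6% lay between stages, and 7 of 420 arrangements gave as much (one-sided exact permutation test, p = 0.0167, adjusted p = 0.0333 over the 4 tests made). For covered length the share was 97.1% (exact permutation test, p = 0.00714, adjusted p = 0.0286). Since the lists differ in length, the window was also counted per 10000 listed peaks. By that rate MEF stood at 0.802 ± 0.185 (SD, n = 2), DAY3 at 0.329, DAY6 at 1.45 ± 0.126 (SD, n = 2), DAY9 at 1.47 and ESC at 2.68 ± 0.616 (SD, n = 2). The between-stage share of the rate was 92.3% (exact permutation test, p = 0.0286, adjusted p = 0.0381).

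**Figure D2:**
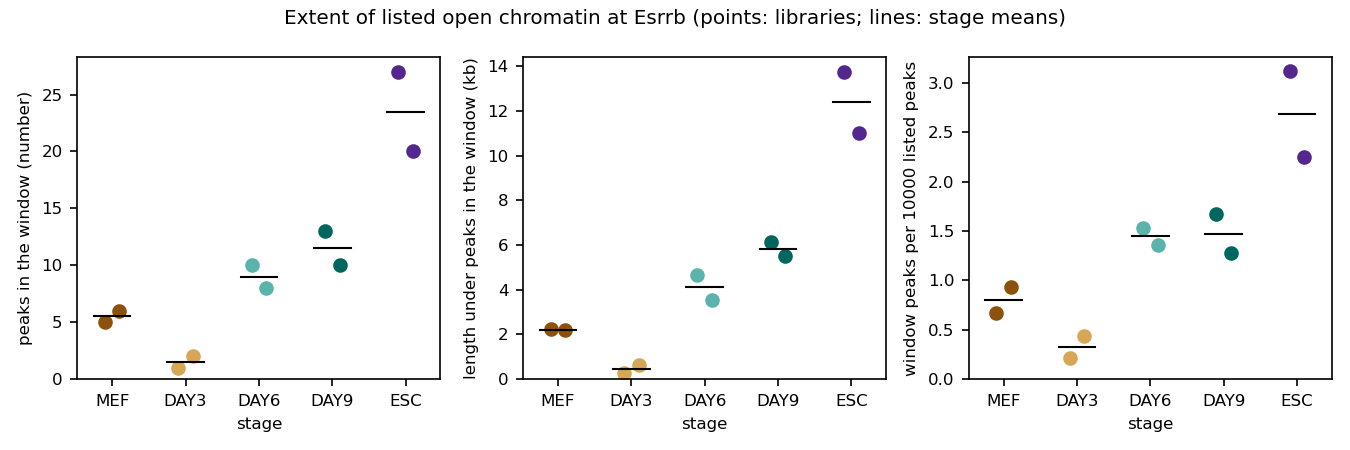
Number of peaks, length under peaks in kb and peaks per 10000 listed peaks in the window, by stage; points are the 2 libraries of a stage and lines their mean. The ESC libraries are highest and the DAY3 libraries lowest in each panel.

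The calls on peak number and on the rate were lost when fewer peaks were used. With a score at or above the median of all lists pooled, the share was 86.6% for peak number (exact permutation test, p = 0.121) and 85.4% for the rate (exact permutation test, p = 0.136). With lists cut to equal length it was 91.6% for both (p = 0.0524, exact permutation test), and in the upper 50% of each list exact permutation p-values were 0.107 and 0.114. Both calls were also lost without either MEF or either DAY6 library, at exact permutation p-values of 0.0667 to 0.0952 for peak number and 0.114 to 0.124 for the rate, whereas the call on covered length held in all of these cases but the score threshold, where its share was 93.9% (exact permutation test, p = 0.0786). From MEF to DAY9 the number rose by 6.0 peaks, but because DAY3 fell below MEF the stages in order showed no trend past the threshold (Jonckheere-Terpstra statistic, exact permutation test, two-sided, p = 0.122, adjusted p = 0.122, where the smallest possible p was 0.0111).

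The regions of the window differed by position. Between the first and the internal start, 5 regions were found, of which 1 had peaks in both ESC libraries. From the internal start to the end of the gene, a stretch of 100 kb, 21 regions were found, and 13 of them had peaks in both ESC libraries. Peaks in that stretch numbered 2 and 2 for MEF, 0 and 1 for DAY3, 8 and 4 for DAY6, 9 and 7 for DAY9, and 17 and 14 for ESC. In each library of DAY6, DAY9 and ESC that was at least 50% of the peaks in the window. Downstream of the gene, the 6 regions had 3 and 4 ESC peaks, 1 peak in DAY9 replicate 2, 1 in DAY3 replicate 2 and none in MEF. Whether a region is exonic or intronic was not analysed here.

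Against MEF, 14 of the 37 regions were gained in ESC, meaning a peak in both ESC libraries and in neither MEF library, and 2 were lost, the opposite case. Across the genome, 15.9% of regions were gained and 11.1% were lost by the same rule. Of the 14 gained regions, 12 lay between the internal start and the gene end and 2 downstream. These counts carry no test, since 2 libraries a stage allow no p below 0.333 (exact permutation, two-sided). With lists of equal length, 7 regions were gained, with scores at or above the pooled median 5, and in the upper 50% of each list 6, and each of these was among the 14. The regions at +105.3, +110.1, +137.9, +140.8 and +143.3 kb (distance of the centre from the first start) were gained under all 3 of these settings. Without ESC replicate 2 the count was 23. The genome-wide share of gained regions is given for the full lists alone, so these counts have no genome-wide standard here.

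By step, 3 regions were lost from MEF to DAY3, beside 10.4% of regions genome-wide, and none was gained, beside 5.43%. From DAY3 to DAY6, 4 were gained (5.29% genome-wide) and none lost (1.5%). From DAY6 to DAY9, 1 was gained (5.39%) and none lost (0.956%). In ESC against DAY9, 8 were gained (9.1%) and 1 was lost (9.24%). Of the 14 regions that ESC gained over MEF, none was listed in both DAY3 libraries. Peaks in both libraries appeared first at DAY6 in 2 of them, at DAY9 in 4 and in ESC in 8. With a peak in at least 1 library as the measure, 5 were first open at DAY6, 2 at DAY9 and 7 in ESC. Of all gained regions in the genome, the share first open in both libraries was 8.69% for DAY3, 14.7% for DAY6, 15.7% for DAY9 and 60.9% for ESC. By a peak in at least 1 library these shares were 13.9%, 22.3%, 14.2% and 49.6%, so the 8 and 7 of 14 first open in ESC were near the genome's shares. In 3 of the 14 (+74.7, +80.0 and +89.9 kb), an ESC height was below the smallest height of 4.73 listed in the shallowest list, DAY6 replicate 2, so peaks as low as that could not have been detected there. The same held for DAY9 heights at regions first in both libraries at DAY9: 4.50 and 4.21 at +109.1 kb, and 4.23 in replicate 1 at +137.9 kb. At +117.9 and +140.8 kb both DAY9 heights were above that limit. The part of depth in the split between DAY6 and DAY9 was not tested.

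The strongest ESC peak of the window lay at +140.8 kb (chr12:86501483-86502323), 80.3 kb after the internal start. Its height was 36.2 and 30.6 in ESC, 8.46 and 5.97 in DAY9 and 4.92 in DAY6 replicate 1, while no peak was listed in DAY6 replicate 2, DAY3 or MEF. By pileup it stood among the top 4.93% and 2.84% of all ESC peaks. Both ESC libraries thus lay above both DAY9 libraries, and these above the DAY6 library with a peak.

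The region at +137.9 kb (chr12:86498641-86499336) had heights of 35.3 and 16.9 in ESC, 4.23 and 5.56 in DAY9 and 4.05 in DAY6 replicate 1. No peak was listed in the other 5 libraries. Its DAY6 peak was at the listing limit of its library, and both ESC heights were above both DAY9 heights. Next to it, the region at +143.3 kb (chr12:86503953-86504909), named after its values were seen, had peaks in ESC alone, with heights of 26.4 and 15.4.

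The region at +110.1 kb (chr12:86470760-86471725) had a peak in both libraries of DAY6, DAY9 and ESC. No peak was listed for MEF or DAY3. DAY6 reached heights of 6.95 and 7.74, DAY9 13.2 and 14.1, and ESC 29.3 and 10.99. DAY9 lay above DAY6 in both libraries, while the ESC libraries lay on either side of DAY9. The smaller peak beside it at +109.1 kb had heights of 4.05 in DAY6 replicate 1, 4.50 and 4.21 in DAY9, and 16.1 and 8.25 in ESC.

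The region at +102.1 kb (chr12:86462902-86463527) had another course and was singled out after its values were seen. Its height was 5.79 and 9.02 in DAY6, 10.7 and 7.33 in DAY9 and 6.89 in ESC replicate 1, with no peak in ESC replicate 2, MEF or DAY3. By pileup it stood in the top 29.2% and 40.4% of the DAY9 lists and in the top 55.1% of the ESC replicate 1 list. Its ESC height lay within the range of DAY6 and below both DAY9 heights. A region at +117.9 kb, also chosen after its values were seen, first appeared at DAY9, with heights of 6.01 and 5.29, and had 21.5 and 6.60 in ESC.

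**Figure D3:**
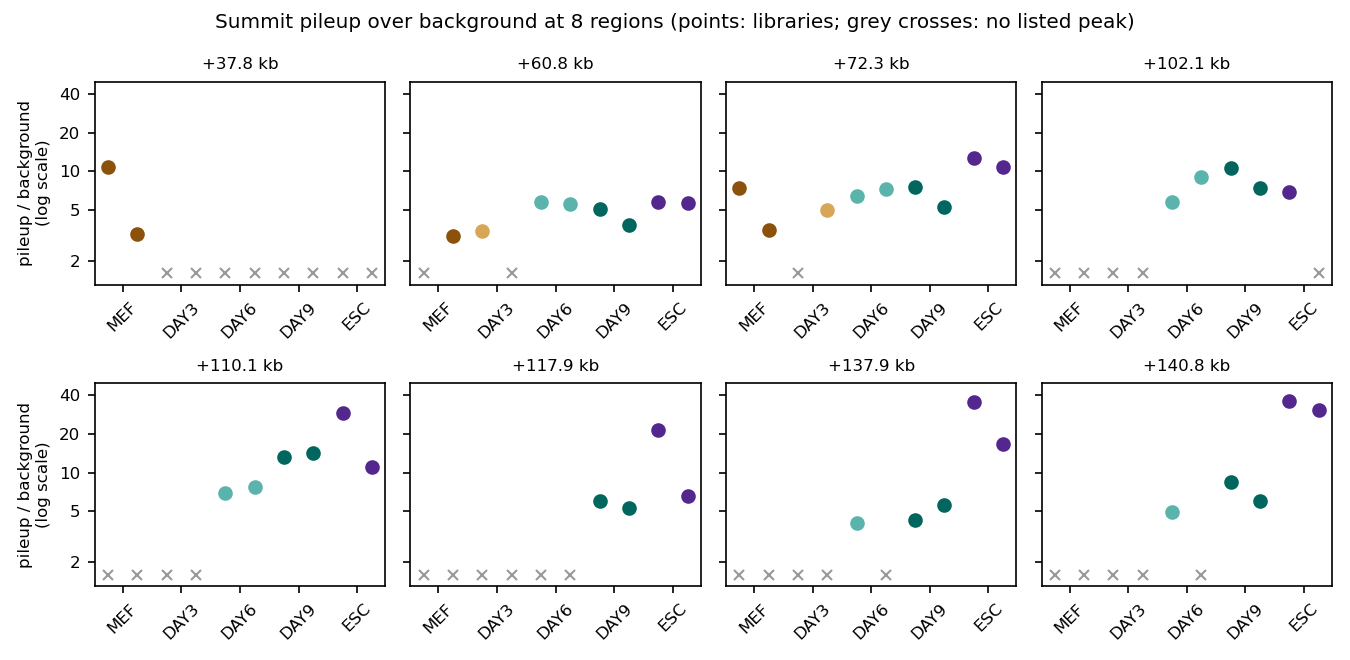
Height (summit pileup over background, log scale) at 8 regions by library in the order of the stages; panels are named by the distance of the region's centre from the first start, points are libraries and grey crosses mark libraries with no listed peak. At +140.8 kb the ESC heights are 36.2 and 30.6, and at +102.1 kb the highest value, 10.7, is in DAY9.

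Peaks in both MEF libraries were found at 4 regions. The region at +72.3 kb (chr12:86433028-86433815), 11.8 kb after the internal start, was the most widely open of the window, with a peak in 9 of 10 libraries. Its heights were 7.32 and 3.49 for MEF, 4.93 for DAY3 replicate 2, 6.37 and 7.31 for DAY6, 7.51 and 5.29 for DAY9, and 12.6 and 10.8 for ESC. MEF, DAY6 and DAY9 overlapped, and both ESC libraries were higher. The regions at +37.8 kb (chr12:86398570-86399246) and +157.7 kb (chr12:86518605-86519118) were listed in MEF alone, with heights of 10.8 and 3.24 at the former and 6.44 and 3.37 at the latter. The region at +41.8 kb (chr12:86402670-86403211) had heights of 4.98 and 3.00 in MEF, 6.88 in DAY6 replicate 2, 3.82 in DAY9 replicate 1 and 8.04 in ESC replicate 1, so that each later stage with a peak had it in 1 library. None of these 3 had a DAY3 peak.

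An ESC peak was missing at 7 regions. The one with the highest score at an intermediate stage lay upstream of the gene at -31.4 kb (chr12:86329471-86329941), with heights of 5.21 and 5.59 in DAY6 and 3.82 and 3.26 in DAY9. It was the region lost in ESC against DAY9, and all 4 of its peaks had less than the median score of all lists, 133. The next, at +146.9 kb, had a height of 3.28 in DAY9 replicate 1 and no peak elsewhere. Close beside the region at -31.4 kb lay another at -32.1 kb (chr12:86328703-86329314), named after its values were seen. Its heights were 6.45 in DAY6 replicate 2, 3.685 in DAY9 replicate 1 and 4.88 in ESC replicate 1, so the upstream stretch was not without an ESC peak.

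Of the 37 regions, 14 were listed in 1 library alone, and 10 of these were in an ESC library. The genome-wide share of such regions was not counted, and the ESC lists were the longest of the series, at 86585 and 88980 peaks. These counts are therefore not a trait of the window. The highest of the 14 lay at +136.1 kb, beside the strongest peaks, with a height of 16.4 in ESC replicate 1. Between the starts, the region at +34.4 kb (chr12:86395291-86395832) was not gained because MEF replicate 1 had a peak of height 4.69 there, and its ESC heights were 19.5 and 4.76. Both of these were chosen after their values were seen. At +34.4 kb the ESC libraries differed widely from each other. At +136.1 kb ESC replicate 2 had no listed peak, so its height there is unknown. The expected pileup at the nearest listed peak of that library, at +137.9 kb, was 4.02 times background, so the listing limit at background level does not apply there. The 2 gained regions downstream of the gene were low, with heights of 5.74 and 4.95 in ESC at +164.6 kb, and 5.46 and 7.51 in ESC and 3.39 in DAY9 replicate 2 at +195.9 kb.

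In ESC the expected pileup at many distal peaks was above background. Peak callers of this kind take it as the larger of a genome-wide and a local average. Fragments of the peaks themselves can enter a local average, and their part was not tested. The expected pileup was highest in ESC, at 2 places. At +105.3 to +110.1 kb it was between 3.30 and 3.41 times background in ESC replicate 1 and between 2.21 and 2.29 times in replicate 2. From +136.1 to +143.3 kb it was between 4.63 and 6.36 times background in replicate 1, and from +137.9 kb on between 4.02 and 4.90 times in replicate 2, with the top at +140.8 kb in both. Between these places, at +117.9 kb, it was 2.40 and 1.52. Of all ESC peaks, 0.387% in replicate 1 and 0.718% in replicate 2 had an expected pileup as high as that top.

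At DAY9 the same measure was raised at the first of these places and barely at the second. It was 1.68 to 1.75 times background from +105.3 to +110.1 kb in replicate 1 and 1.79 at both peaks there in replicate 2. Such values were common at DAY9: 21.8% of all peaks in replicate 1 and 20.9% in replicate 2 reached the window's highest. At +140.8 kb the expected pileup was 1.35 and 1.34 times background. In DAY6 the highest value in the window was 1.27, at +112.7 kb, in MEF 1.195, and in DAY3 1.00. The authors' fold divides by this expected value, so it reads low where that value is high. At +140.8 kb the fold was 5.48 and 6.06 in ESC, beside 5.77 and 4.13 in DAY9. Yet the ESC heights there were above those of DAY9. The measure exists at listed peaks alone, and its difference between stages was not tested. The part of depth was not tested either: background pileup was 3.48 and 5.46 in ESC and 7.33 and 7.37 in DAY9.

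**Figure D4:**
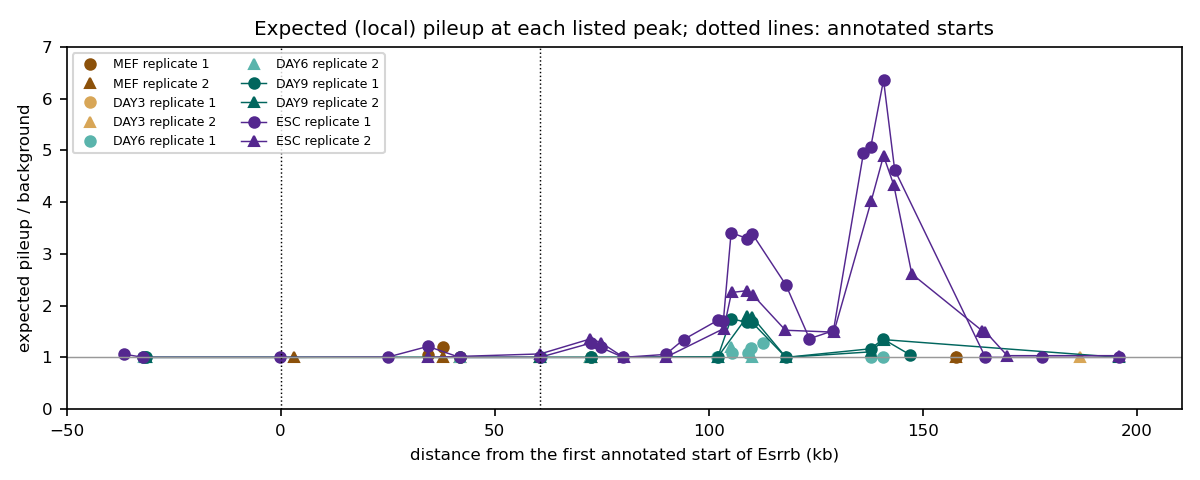
Expected (local) pileup at each listed peak, as a multiple of the list's background, against the distance in kb from the first start (dotted lines: the 2 annotated starts); circles are replicate 1 and triangles replicate 2, and lines join the peaks of the DAY9 and ESC libraries. The ESC values reach 6.36 and 4.90 at +140.8 kb, and the DAY9 values stay below 2.

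The distal regions lay close together. Joining ESC regions (peak in both libraries) over gaps of up to 10 kb, a distance chosen after the data were seen, gave a group of 4 over 18.2 kb starting at +72.3 kb, a group of 5 over 15.1 kb from +103.5 kb and a group of 4 over 15.1 kb from +129.1 kb. Of the 40101 such groups in the genome the median held 1 region, 4.42% held at least 4 and 2.08% at least 5.

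Both ESC libraries had peaks at 17 regions, and 10 more were listed in ESC replicate 1 alone and 3 in replicate 2 alone. At the 17 shared regions the height in replicate 1 ran from 4.59 through a median of 12.6 to 36.2, and in replicate 2 from 3.30 through 6.60 to 30.6, and 15 of 17 were higher in replicate 1. Over the whole lists the median height was also higher in replicate 1, at 7.75 against 5.68. Replicate 1 had more peaks in the window although its list was the shorter, at 86585 against 88980 peaks. Of the 17 regions, 1 had peaks in both libraries in MEF, none in DAY3, 4 in DAY6 and 7 in DAY9. Genome-wide, 32.7%, 35.1%, 47.6% and 59.8% of 58800 ESC regions did, so in each earlier stage the share of ESC regions already open was smaller in the window than over the genome. The 58800 were not parted by distance from gene starts, whereas 1 of the 17 lay at an annotated start of Esrrb. At the 7 regions with peaks in both DAY9 and both ESC libraries, both ESC heights were above both DAY9 heights in 6 and below them in none, against 33.4% above and 33.4% below over all such regions.

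Esrrb was then set beside other protein-coding genes, each with 50 kb on either side. The 14 gained regions compare with a median of 2 over 21887 genes, and 93 genes (0.425%) had as many. Because Esrrb is long, the 1739 genes with windows within 25% of its length are a closer standard: their median was 3, and 0.863% had at least 14. The number of regions was less unusual, at 37 beside a median of 25 in windows of like length, where 17.5% had as many. Windows of neighbouring genes overlap, so these shares are descriptions.

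**Figure D5:**
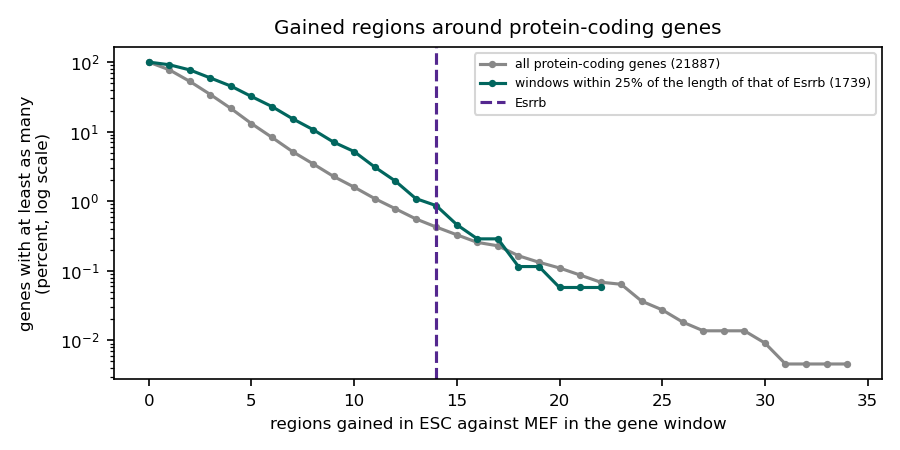
Percent of genes (log scale) whose window holds at least the number of gained regions on the horizontal axis, for all protein-coding genes and for those with windows within 25% of the length of that of Esrrb. The dashed line marks Esrrb at 14, where the shares are 0.425% and 0.863%.

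Windows of other genes in the naive pluripotency network mostly held more peaks in ESC as well. Of 15 such genes, 14 had more peaks in their windows in both ESC libraries than in either MEF library and none had fewer, beside 39.3% with more and 11.8% with fewer over all genes. The exception was Klf4, with 10 and 6 peaks in MEF and 6 and 8 in ESC. Per 100 kb, Esrrb gained 5.37 regions, the list had a median of 5.73 and 7 of its 15 genes gained fewer than Esrrb. Over all 21887 genes the median was 1.00 per 100 kb, and 2.11% gained as many as Esrrb. Zfp42, a marker of naive stem cells, was highest at 10.7 per 100 kb, and Prdm14, a repressor of differentiation genes, followed with 8.79. Esrrb therefore stood in the middle of its network in density, and its count of 14 was for a window of 260.5 kb. Among the 1739 genes with windows of like length, 0.863% gained at least 14 regions and 1.27% gained as many per 100 kb. The part of window length in the count was not tested beyond these shares.

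The relatives of Esrrb were mixed. Of the 5 related nuclear receptors, 3 had more peaks in both ESC libraries (Esrrg, Esr2 and Nr5a1), the estrogen receptor Esr1 had fewer, with 13 and 12 in MEF and 10 and 11 in ESC, and Esrra was neither. All 5 gained fewer regions per 100 kb than Esrrb, as did most genes: 2.11% of all 21887 gained as many per 100 kb. Of 7 known regulators and partners, 3 had more peaks in ESC, 2 fewer and 2 neither. Over all genes 39.3% had more and 11.8% fewer by the same rule, and neither short list was tested against these shares. Tcf7l1, the repressor of Esrrb in the Wnt pathway, gained 14 regions and lost 7. Stat3, which carries the LIF signal, had 12 peaks in each MEF library and 6 and 9 in ESC, and the demethylase gene Kdm1a had 7 and 6 in MEF and 5 and 2 in ESC.

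The genes whose windows followed the course of Esrrb most closely were sought among 12870 genes whose windows held at least 50% as many peaks over the 10 lists. Pearson's r over the 10 libraries, on peaks per 10000 listed peaks, had a median of -0.246. The highest 5 values were those of Ndufs4 (r = 0.987), Kcnj6 (0.981), Unc5cl (0.966), Enpep (0.965) and St6galnac3 (0.957). Ndufs4, a mitochondrial complex I gene, had 5 and 6 MEF peaks, 2 and 2 DAY3 peaks, 8 and 6 DAY6 peaks, 10 and 9 DAY9 peaks, and 17 and 14 ESC peaks. The points share the libraries and their depth, so these values are descriptions.

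The labels were checked against peaks at annotated starts of marker genes, and depth differed between lists. Of 10 fibroblast markers, 7 were matched, and all 7 were open in both MEF libraries. For DAY3 that number was 4, for DAY6 3, for DAY9 2 and for ESC 2 (Col1a2 and Twist1). Postn, Col3a1, Il1rl1 and Prrx1 had none in ESC. Of 10 pluripotency markers, 6 were matched, and none was open in both MEF libraries. Pou5f1, Zfp42 and Utf1 each had a peak in 1 MEF library. The number open in both libraries was 2 for DAY3, 3 for DAY6, 6 for DAY9 and 5 for ESC. In ESC, Pou5f1 had a peak in replicate 1 alone. Of the 3 matched epithelial markers, Epcam had peaks in both libraries of DAY6, DAY9 and ESC, Krt18 in both of DAY6 and ESC, and Krt8 in both of DAY9. Of the 2 matched trophectoderm markers, Elf5 had them in DAY9 and Cdx2 in ESC, and the blood marker Ptprc had none in the 10 libraries. No endothelial marker was matched. These marker counts differed between the stages in other courses than the Esrrb window, and their part in its values was not tested. The share of all annotated starts open at each stage was not counted, so the marker counts have no genome-wide standard here. Background pileup, the measure of relative depth, ran from 2.33 (DAY6 replicate 2) to 8.32 (MEF replicate 2).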

How the data were processed

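Per the submitters' processing notes, Bowtie2 2.3.2, MACS2 2.1.1, deepTools 2.3.6 and the build mm10 were used, in roles not given; filters, duplicates and transposase offset are not given in the sources used here. The authors deposited 1 peak list per library. Its score is 10 times the −log10 p-value rounded down (with rare exceptions in DAY6 replicate 2), its fold a linear ratio over the expected pileup, and no deposited −log10 p-value is under 5. The deposited −log10 q-value was not used. Where −log10 p was at most 300, a whole number n for the summit pileup and an expected value were recovered from fold = (n + 1) / (expected + 1) and the Poisson p-value (tolerance 0.01), and the commonest expected pileup of a list is its background. Read totals are not used here, so background pileup stands for relative depth; precision is limited by 2 libraries a stage.

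All 10 libraries carry 1 batch name. Peaks of the 10 lists were merged where they overlapped by at least 1 bp. Positions came from the RefSeq gene table and promoter windows (GRCm38.p6). Tests were exact permutation tests over samples with Benjamini-Hochberg adjustment, written in Python 3.11.15 with numpy 2.4.6 and scipy 1.17.1. They were tested on simulated data. The member gene, gene lists and tests were chosen with earlier results of these data known. Per-library values are given for the regions at the starts, the 3 highest-scoring in ESC, the 2 highest-scoring at DAY3, DAY6 or DAY9 without an ESC peak, and those in both MEF libraries; the 5 genes most like Esrrb follow Pearson's r. Summit positions were not used, since that column is unset in every peak; the planned summit windows were centred on peak midpoints. The correlation of deviations between libraries with one number ran from -0.0102 to 0.0248 (10 pairs of stages), so the numbers do not pair the samples.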

Additional observations from a re-analysis of the deposited data

How the results depend on the processing

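Outside the settings that leave out 1 library, 26 values kept their direction and side of the threshold or size, 7 lost the threshold and 4 moved. With lists of equal length the between-stage share was 91.6% for peak number and 91.6% for the rate per 10000 listed peaks (exact permutation p = 0.0524 for both), and 7 regions were gained. With scores at or above the pooled median the shares were 86.6% for peak number, 93.9% for covered length and 85.4% for the rate, and 5 regions were gained. In the upper 50% of each list they were 90.1% for peak number and 88.5% for the rate, and 6 regions were gained. Fewer peaks enter under each of these, and the cause of the lost calls was not otherwise tested. With the replicate block, the shares were 96.2%, 98.3% and 93.5% (exact permutation p = 0.00833, 0.00833 and 0.0167), the trend was 6.0 peaks (exact permutation p = 0.0903) and 24 regions were gained in replicate 1 alone and 18 in replicate 2 alone; the block changed no call of a test. Leaving out 1 library gave 94.2% to 99.4% for peak number, 96.9% to 99.4% for covered length, 91.9% to 98.97% for the rate, 4.5 to 7.5 peaks for the trend, and 15 to 23 gained regions. The calls on peak number and on the rate were lost without either MEF or either DAY6 library. Flanks of 25 kb and 100 kb kept each call, with 13 and 14 gained regions. No genome-wide share of gained regions is given for the settings in this section. Weak peaks depend on depth: the smallest listed height at background level was 2.76 to 4.73.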
